A study of Arabidopsis thaliana with 24 samples.

Results

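The root meristem growth factor genes encode small secreted signalling peptides, and 10 genes of this signalling system are described here out of 32619 gene rows in the deposited tables. They comprise 7 peptide genes (RGF1, RGF2, RGF3, RGF5, RGF6, RGF7 and RGF9) and 3 genes listed as RGF receptor kinases (AT4G26540, AT5G48940 and AT5G56040). The list was chosen by family membership after earlier results of these same data had shown RGF2 and RGF3 among the largest falls from Proximal to Distal cells, so the levels and differences below are a description and support nothing about how the genes were picked.

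Root meristem cells of Arabidopsis thaliana, ecotype Col-0, were turned into protoplasts, and 3 cell populations per line were collected by fluorescence-activated sorting on the strength of their GFP signal. The populations are labelled Proximal, Medial and Distal, and the sources used here state neither which signal strength each label stands for nor which end of the root it is named from. The lines carry the strain labels PUB25 and SPT, both with the tissue label root meristem and 3 libraries per zone, and TMO5, with the tissue label root meristematic xylem and 2 libraries per zone, which gives 24 libraries in 9 groups. PUB25 and SPT are called the root meristem lines below and TMO5 the xylem line, after their tissue labels. All 9 groups share the ecotype and the protoplasting, and no mutant, treatment or age is labelled. The strain labels give the name of each line but not the construct that carries GFP.

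One gene has 1 deposited FPKM value (fragments mapped to a transcript, scaled to its length and to the mapped fragments in all) per line and zone, so no spread between libraries, no SD and no sequencing depth can be given. The words rose and fell are kept for genes whose q value (the authors' p-value after adjustment for many genes) was under 0.05. A log2 difference below is log2(FPKM + 1) in the zone nearer the Distal end of the order Proximal, Medial, Distal less that in the other zone, which understates changes of low genes. These are bulk populations, in which fewer cells of a type and less RNA per cell cannot be told apart. Levels are given line by line and were not tested between lines. Wherever 3 levels follow each other, they stand in that zone order.

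RGF peptides, also called GOLVEN or CLEL peptides, are cut from the end of a longer precursor and carry a sulfate on the tyrosine of an Asp-Tyr pair, added by the tyrosylprotein sulfotransferase TPST. Leucine-rich repeat receptor kinases at the cell surface perceive them. In the Arabidopsis root the peptides are known for maintaining the stem cell niche and for setting the gradient of PLETHORA transcription factors along the meristem.

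The coding ends of 4 peptide genes are shown, from the codons of Asp-Tyr (capitals) to the stop codon, because the mature peptide starts at that pair. RGF2 and RGF3 carry the steepest zone differences, RGF1 fell with them in 1 line, and RGF9 is listed at 0 throughout. They were read from the RefSeq genome TAIR10.1, in whose coordinates the loci of the files overlap their genes, at chr1:4669184-4669225 on the plus strand for RGF2, chr2:1276899-1276940 on the minus strand for RGF3, chr5:24466531-24466572 on the minus strand for RGF1 and chr5:25897681-25897725 on the minus strand for RGF9.
RGF2: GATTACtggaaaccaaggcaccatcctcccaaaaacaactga
RGF3: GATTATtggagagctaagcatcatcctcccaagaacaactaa
RGF1: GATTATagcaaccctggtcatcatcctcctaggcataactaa
RGF9: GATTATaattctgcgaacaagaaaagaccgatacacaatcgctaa

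RGF2 and RGF3 share 32 of 39 bases over the first 13 codons from Asp-Tyr, and 10 of the 13 encoded residues, the highest values among all pairs of the 7 members. RGF2 and RGF1 share 26 of 39 bases, and RGF3 and RGF1 share 27. RGF9 shares 17 of 39 bases with RGF2 and 19 with RGF3. The residue after Asp-Tyr is tryptophan in RGF2 and RGF3 and in no other member. It is serine in RGF1, proline in RGF5 and RGF6, glycine in RGF7 and asparagine in RGF9. Adjacent prolines are encoded in this stretch of every member except RGF9.

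RGF2 (AT1G13620, chromosome 1, 4668443 to 4669471) encodes a peptide precursor and stood in PUB25 at 182 FPKM in Proximal, 37.6 in Medial and 1.67 in Distal cells. The SPT values were 87.4, 2.32 and 1.11 FPKM, and the TMO5 values 0.262, 0.144 and 0.480 FPKM. It was thus near the top of the expressed genes in Proximal cells of the root meristem lines. It lay above 96.9% of them in PUB25 and 94.4% in SPT, and stood under 1 FPKM in every xylem zone. Expressed here means averaging 1 FPKM or more across the zones of that line. Distal against Proximal, the log2 difference of RGF2 was -6.10 in PUB25 and -5.39 in SPT, and the authors' deposited table gives q values of 0.000407 and 0.00454.

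RGF3 (AT2G04025, chromosome 2, 1276679 to 1277734), the gene whose coding end is closest to that of RGF2, stood at 132, 28.7 and 2.73 FPKM in PUB25. The SPT levels were 124, 5.70 and 2.96 FPKM, and those of TMO5 0.986, 1.63 and 1.65 FPKM. Both root meristem lines held it high in Proximal cells and low in Distal cells, and the xylem line held it low in all zones. The log2 difference from Proximal to Distal was -5.16 in PUB25 and -4.98 in SPT, with q values of 0.000407 and 0.000359 in the authors' deposited table.

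The fall of RGF2 and RGF3 was divided differently between the steps of the 2 root meristem lines. In PUB25, the log2 difference of RGF2 was -2.24 from Proximal to Medial and -3.85 from Medial to Distal, and that of RGF3 was -2.16 and -2.99. In the authors' deposited table q was 0.000407 for all 4 steps. The first step held 36.8% of the whole log2 fall of RGF2 and 42.0% of that of RGF3. In SPT the first step was -4.73 for RGF2 and -4.23 for RGF3, each with q = 0.000359 in the authors' deposited table. That step held 87.9% and 84.8% of the whole. The second step of SPT, with log2 differences of -0.65 for RGF2 and -0.76 for RGF3, had q values of 0.308 and 0.228 in the authors' deposited table. The difference between the lines in these steps was not tested.

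**Figure D1:**
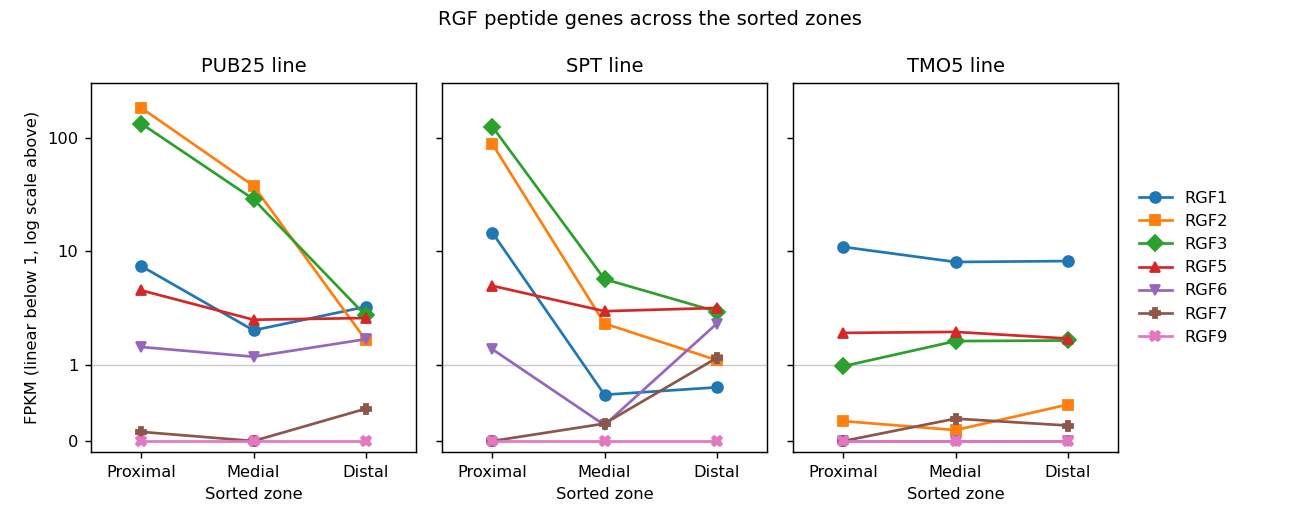
FPKM of the 7 RGF peptide genes (y axis, linear below 1 and log above) in the Proximal, Medial and Distal zones (x axis) of each line. Each point is the 1 deposited value of a gene, line and zone, and lines join the zones of 1 gene. RGF2 and RGF3 lie between 87.4 and 182 FPKM in Proximal cells of PUB25 and SPT and between 1.11 and 2.96 FPKM in Distal cells. RGF1 is the highest of the 7 in all zones of TMO5.

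RGF1 (AT5G60810, chromosome 5, 24466531 to 24467179), another peptide precursor gene, stood at 7.39, 2.02 and 3.26 FPKM in PUB25. Its SPT levels were 14.6, 0.610 and 0.707 FPKM, and its TMO5 levels 10.9, 8.06 and 8.21 FPKM. Proximal cells held the most RGF1 in each line, and the zones of the xylem line lay closest together. In PUB25 it fell from Proximal to Medial and from Proximal to Distal, with q values of 0.0204 and 0.0497 in the authors' deposited table. The second of these is just under the threshold. In SPT the log2 fold of Distal over Proximal in the authors' deposited table was -4.36 without passing, with a q value of 0.368. The q value for every zone pair of RGF1 in TMO5 was 0.998 in the authors' deposited table.

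RGF5 (AT5G51451), also a peptide precursor gene, stood at 4.54, 2.51 and 2.59 FPKM in PUB25. SPT held 4.97, 2.98 and 3.18 FPKM of it and TMO5 1.92, 1.96 and 1.71 FPKM. Its smallest q value over the 9 zone pairs in the authors' deposited table was 0.159. RGF5 was thus detected in all 9 groups, with no zone pair past the threshold.

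RGF6 (AT4G16515) stood between 1.19 and 1.69 FPKM in PUB25. In SPT it stood at 1.38, 0.210 and 2.31 FPKM, and it is listed at 0 in every zone of TMO5. RGF7 (AT3G02240) was at most 0.425 FPKM in PUB25, 1.15 in SPT and 0.295 in TMO5, and is listed at 0 in 3 of the 9 groups. RGF9 (AT5G64770) is listed at 0 in all 9. No zone pair of these 3 peptide genes passed the authors' test. The RGF6 row lies over its full 510 bases within AT4G16510 on the opposite strand, which stood between 1.93 and 12.7 FPKM. The RGF7 row has the position of the abundant gene RGP1 (AT3G02230, at 186 to 293 FPKM in PUB25), and spans 3890 bases where RefSeq gives RGF7 967. The sources used here do not state whether reads were counted by strand, so reads of RGF6 and AT4G16510 may not have been separated. In TMO5, where RGF6 is listed at 0, AT4G16510 stood at 12.7, 10.6 and 9.05 FPKM. RGP1 lies on the same strand as RGF7 and covers 2335 bases of the RGF7 row. In that stretch counting by strand would not separate reads. RGF7 is listed at 0 in Medial cells of PUB25 and in Proximal cells of SPT and TMO5. RGP1 stood there at 293, 124 and 87.1 FPKM. Whether reads were shared between these genes was not tested. RGF2 overlaps AT1G13630 on the opposite strand by 47 bases, and that gene was at most 0.912 FPKM in any group.

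AT5G56040 (chromosome 5, 22694878 to 22698628) is a receptor kinase gene with the RefSeq synonym SKM2. Neither the deposited titles nor RefSeq name the 3 kinase genes as RGF receptors. It stood at 1.26, 24.0 and 45.0 FPKM in PUB25, at 3.56, 8.36 and 29.0 FPKM in SPT, and at 15.2, 32.5 and 36.8 FPKM in TMO5. The order Proximal, Medial, Distal from low to high was the same in all 3 lines, with the narrowest range in the xylem line. From Proximal to Distal the log2 difference was 4.34 in PUB25 and 2.72 in SPT, with q values of 0.000407 and 0.000359 in the authors' deposited table. In TMO5 it was 1.22, with q = 0.00777, the smallest that the authors' deposited table gives for that line.

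The rise of AT5G56040 was also divided differently between steps. From Proximal to Medial its log2 difference was 3.47 in PUB25, which is 79.8% of the whole, and 1.04 in SPT, which is 38.2%. From Medial to Distal it was 0.88 in PUB25 and 1.68 in SPT. All 4 steps passed, with q values of 0.000407 for both in PUB25 and of 0.000949 and 0.000359 in SPT in the authors' deposited table. In TMO5 the authors' deposited table gives q = 0.0133 for the first step and 0.998 for the second, so the Medial and Distal levels of the xylem line were not called apart. Whether these steps differ between lines was not tested.

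AT4G26540 (chromosome 4, 13393373 to 13398135), the least abundant of the 3 kinase genes in each group, stood at 0.347, 2.58 and 7.09 FPKM in PUB25. In SPT it stood at 1.04, 8.16 and 7.44 FPKM, and in TMO5 at 0.904, 2.42 and 2.77 FPKM. Proximal cells held the least in each line. From Proximal to Distal the log2 difference was 2.59 in PUB25 and 2.05 in SPT, with q values of 0.000407 and 0.000359 in the authors' deposited table. The Medial and Distal levels of SPT were not called apart, with q = 0.811, and no pair of TMO5 passed, with q values from 0.390 to 0.998 in the authors' deposited table.

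The position of AT4G26540 shares 2721 bases with AT4G26542, a long noncoding RNA gene on the opposite strand. AT4G26542 stood at 0.472, 3.68 and 7.64 FPKM in PUB25, at 1.52, 9.81 and 7.998 in SPT and at 1.25, 1.88 and 2.64 in TMO5. These values follow those of AT4G26540 in the order of the zones in every line, and reads of the kinase gene and of its antisense partner cannot be told apart without strand.

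AT5G48940 (chromosome 5, 19839699 to 19843834), titled LRR receptor-like kinase RCH1 in the deposited tables, stood at 25.7, 36.5 and 34.8 FPKM in PUB25. In SPT it stood at 26.8, 13.1 and 18.8 FPKM, and in TMO5 at 31.5, 37.1 and 33.9 FPKM. Medial cells held the most in PUB25 and TMO5 and the least in SPT. In PUB25 it rose from Proximal to Medial by 0.49 and from Proximal to Distal by 0.42 on the log2 scale, with q values of 0.00259 and 0.0136 in the authors' deposited table. In SPT it fell by 0.98 on the log2 scale from Proximal to Medial, with q = 0.000359 in the authors' deposited table. The log2 difference from Proximal to Distal in SPT was -0.49, with q = 0.113 in the authors' deposited table.

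**Figure D2:**
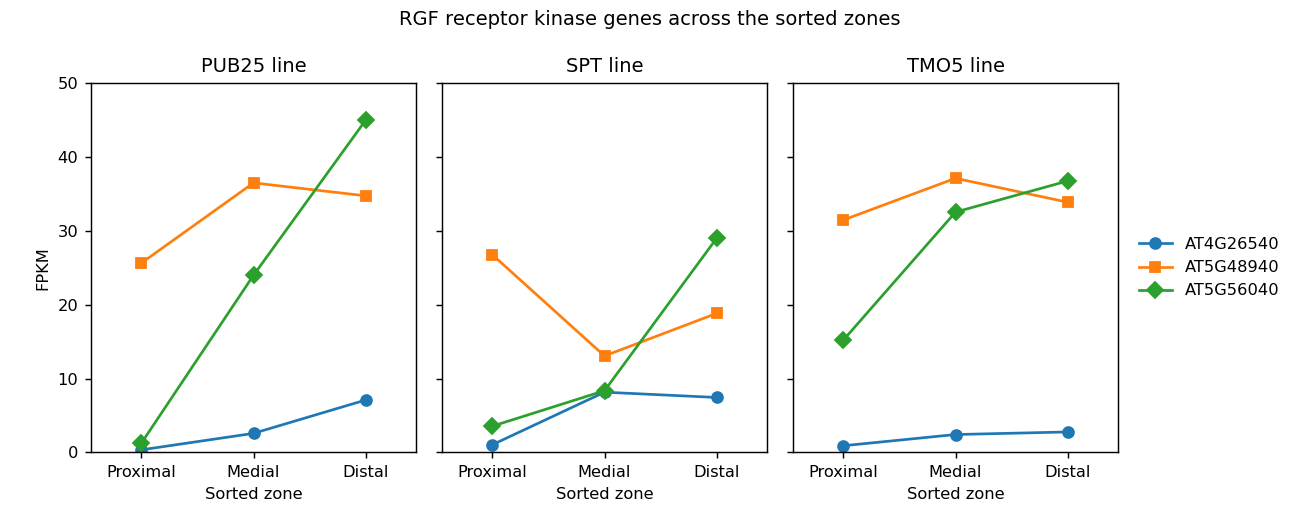
FPKM (y axis, linear) of the 3 genes listed as RGF receptor kinases in the Proximal, Medial and Distal zones (x axis) of each line. Each point is the 1 deposited value of a gene, line and zone. AT5G56040 climbs from Proximal to Distal in each line, reaching 45.0, 29.0 and 36.8 FPKM, and AT5G48940 is at its lowest in Medial cells of SPT, at 13.1 FPKM.

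Summed over the genes, the peptide and receptor levels ran in opposite directions in PUB25. The 7 peptide genes summed to 327 FPKM in Proximal, 72.0 in Medial and 12.4 in Distal cells of PUB25, while the 3 kinase genes summed to 27.3, 63.1 and 86.8. In SPT the peptide sum was 233, 12.0 and 11.4 FPKM and the kinase sum 31.4, 29.6 and 55.3. In TMO5 the peptide sum was 14.1, 12.1 and 12.3 FPKM and the kinase sum 47.6, 72.1 and 73.4. The sum of these 7 peptide genes exceeded that of the 3 kinase genes in 3 of the 9 groups. Those were Proximal and Medial cells of PUB25 and Proximal cells of SPT. The sums leave out the peptide genes RGF4 and RGF8 and the kinase genes AT3G24240 and AT1G34110, described below. In Medial cells of PUB25 these stood at 7.08, 18.1, 43.1 and 44.4 FPKM. RGF8 alone, at 30.2, 21.4 and 20.05 FPKM in TMO5, was above the whole sum of the 7 there. These sums were not tested.

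The make-up of the sums changed as well. Ranks and shares here are only within the 7 peptide genes and within the 3 kinase genes. RGF2 was the highest peptide gene in Proximal and Medial cells of PUB25, with 55.5% and 52.2% of the peptide sum. RGF3 was the highest in the same zones of SPT, with 53.5% and 47.3%. In Distal cells RGF1 led in PUB25 with 26.3% and RGF5 in SPT with 27.9%. RGF1 led in every zone of TMO5, with 66.7% to 77.5%. Among the kinase genes AT5G48940 was the highest in Proximal and Medial cells and AT5G56040 in Distal cells of all 3 lines.

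**Figure D3:**
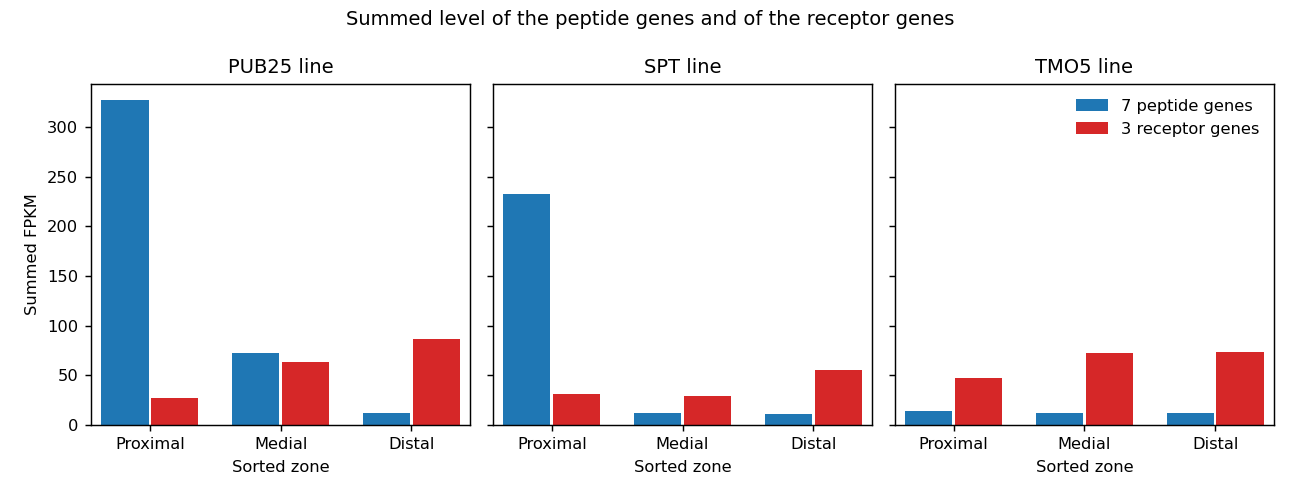
Summed FPKM (y axis, from 0) of the 7 peptide genes (blue bars) and the 3 receptor kinase genes (red bars) in each zone (x axis) of each line, 1 deposited value per gene and zone. The peptide bars drop from 327 to 12.4 in PUB25 and from 233 to 11.4 in SPT, and stay between 12.1 and 14.1 in TMO5.

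By count, 3 of the 10 genes fell from Proximal to Distal cells of PUB25 (RGF1, RGF2 and RGF3), where the authors' test called 17.2% of expressed genes lower. The 3 kinase genes rose, where 19.6% of expressed genes were called higher. Of the 10, 8 were themselves expressed in PUB25. From Proximal to Medial the same 3 peptide genes fell and the same 3 kinase genes rose, against 11.7% and 14.7% of expressed genes. From Medial to Distal 2 fell (RGF2 and RGF3) and 2 rose (AT4G26540 and AT5G56040), against 11.4% and 11.0%. The 3 comparisons of a line share their zones and are not separate evidence.

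In SPT, where 8 of the 10 were expressed, 2 genes fell from Proximal to Distal (RGF2 and RGF3) and 2 rose (AT4G26540 and AT5G56040), against 23.1% and 24.7% of expressed genes. From Proximal to Medial 3 fell (RGF2, RGF3 and AT5G48940) and 2 rose (AT4G26540 and AT5G56040), against 17.3% and 17.4%. From Medial to Distal none of the 10 fell and AT5G56040 rose, against 10.3% and 11.7%. In TMO5, 6 of the 10 were expressed, and few genes of any kind were called. From Proximal to Distal none of the 10 fell and AT5G56040 rose, against 0.266% and 1.27% of expressed genes. From Proximal to Medial none fell and AT5G56040 rose again, against 0.186% and 0.0266%. From Medial to Distal none of the 10 was called, against 0.00664% lower and 2.11% higher.

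The median log2 difference from Proximal to Distal was -0.62 over the 7 peptide genes and 2.59 over the 3 kinase genes in PUB25, beside -0.01 over all expressed genes. In SPT these medians were -0.52, 2.05 and 0.06. In TMO5 the median was 0.98 over the kinase genes, and the median over all expressed genes was 0.00. The medians of the peptide genes hide a wide range, since RGF2 and RGF3 lie between -6.10 and -4.98 in PUB25 and SPT while RGF9 is listed at 0 throughout.

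**Figure D4:**
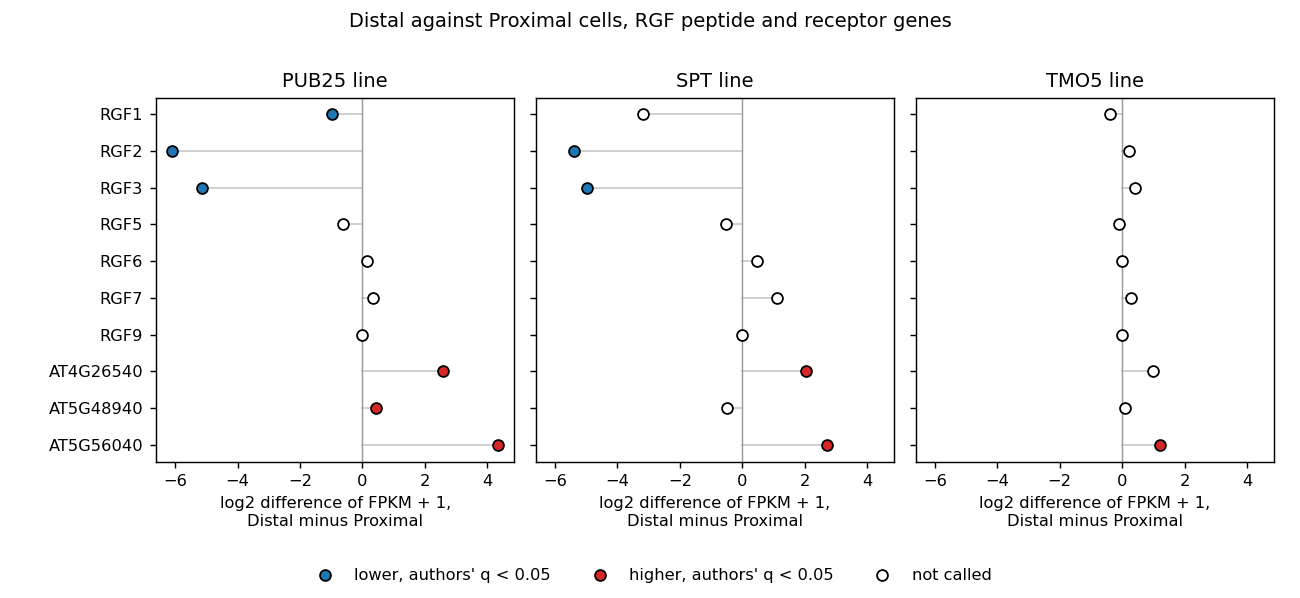
Log2 difference of FPKM + 1, Distal minus Proximal (x axis), for each of the 10 genes (y axis) in each line, with no replicate error available. Filled points passed the authors' q under 0.05 (blue lower, red higher) and open points did not. RGF2 and RGF3 lie at -6.10 and -5.16 in PUB25, and AT5G56040 is the 1 gene of the 10 with a filled point in all 3 lines.

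Other genes of RGF signalling were taken from a list of 23, of which 21 have a row of their own. SERK1 and MPK3 stand in rows joined with neighbouring genes and were left out. From Proximal to Distal 8 of the 21 fell and 1 rose in PUB25, where 17.2% of expressed genes were called lower and 19.6% higher. In SPT 8 fell and 2 rose, against 23.1% and 24.7%, and in TMO5 none was called, against 0.266% and 1.27%. The median log2 difference of the list was -0.29, -0.69 and -0.03 in PUB25, SPT and TMO5.

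Among the other ligand genes, RGF8, a further peptide precursor, stood at 26.9, 18.1 and 11.9 FPKM in PUB25, at 38.9, 7.99 and 1.87 in SPT and at 30.2, 21.4 and 20.05 in TMO5. It fell from Proximal to Distal in PUB25 and SPT, with q values of 0.000407 and 0.000359 in the authors' deposited table. Unlike RGF2 and RGF3, it stood at 20.05 FPKM or more in each zone of the xylem line. RGF4, also a peptide precursor gene, stood at 9.78, 7.08 and 7.10 FPKM in PUB25 and at 17.2, 1.30 and 2.03 in SPT, and passed in neither line.

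TPST, the enzyme that sulfates the peptides, stood at 15.3, 7.29 and 6.05 FPKM in PUB25 and at 11.3, 4.87 and 3.79 in SPT. It fell in both, with log2 folds of -1.34 and -1.57 from Proximal to Distal and q values of 0.000407 and 0.000359 in the authors' deposited table. In TMO5 it stood between 5.79 and 6.06 FPKM. The subtilase gene S1P (SBT6.1), whose enzyme cuts peptide precursors, stood between 2.21 and 6.79 FPKM and passed from Proximal to Distal in no line. TPP2, another subtilase gene, fell in PUB25 from 114 to 60.7 FPKM, with q = 0.000407 in the authors' deposited table.

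The kinase genes described above are not all the receptor kinase genes listed for RGF signalling. Of the others, AT3G24240 (titled receptor-like protein kinase 2) rose from 28.8 to 47.6 FPKM between Proximal and Distal cells of PUB25. Its q value there was 0.000407 in the authors' deposited table. In SPT it stood at 24.2 and 28.9 FPKM in those zones and did not pass. AT1G34110, a leucine-rich repeat receptor-like kinase gene, fell from 48.6 to 23.7 FPKM in SPT, with q = 0.00147 in the authors' deposited table. BAK1, a coreceptor kinase of many leucine-rich repeat receptors, rose in SPT from 41.5 to 71.2 FPKM, with q = 0.0243 in the authors' deposited table. Of the kinase cascade, MKK4 fell in PUB25 from 19.5 to 10.6 FPKM and in SPT from 15.2 to 8.99, with q values of 0.000407 and 0.0369 in the authors' deposited table. YDA, MKK5 and MPK6, which act in the same cascade, passed from Proximal to Distal in no line, nor did the deubiquitinase genes UBP12 and UBP13.

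PLT1, a PLETHORA transcription factor gene of the stem cell niche, stood at 47.4, 18.3 and 7.94 FPKM in PUB25, at 60.9, 8.05 and 1.41 in SPT and at 126, 148 and 137 in TMO5. PLT2 stood at 39.7, 20.3 and 11.7 FPKM in PUB25, at 31.5, 8.07 and 3.20 in SPT and at 4.91, 7.83 and 4.47 in TMO5. PLT3 went from 97.9 to 44.1 in PUB25 and from 134 to 43.8 in SPT between Proximal and Distal cells. All 3 fell in both lines over that interval, with q values of 0.000407 in PUB25 and 0.000359 in SPT in the authors' deposited table. In the xylem line, where RGF2 and RGF3 were low, PLT1 was thus high in all zones and PLT2 was not, while PLT3 stood at 65.1, 74.0 and 66.6 FPKM. The name of PLT1 stands at 2 positions in the files, as does that of BBM. AT2G12646, of the PLATZ transcription factor family, stood at 106, 70.8 and 72.6 FPKM in PUB25 and at 107, 28.2 and 7.67 in SPT, and fell in both with q values of 0.00110 and 0.000359 in the authors' deposited table. PIN2, an auxin efflux carrier gene of the outer root tissues, rose in SPT from 51.5 to 128 FPKM, with q = 0.000359 in the authors' deposited table.

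**Figure D5:**
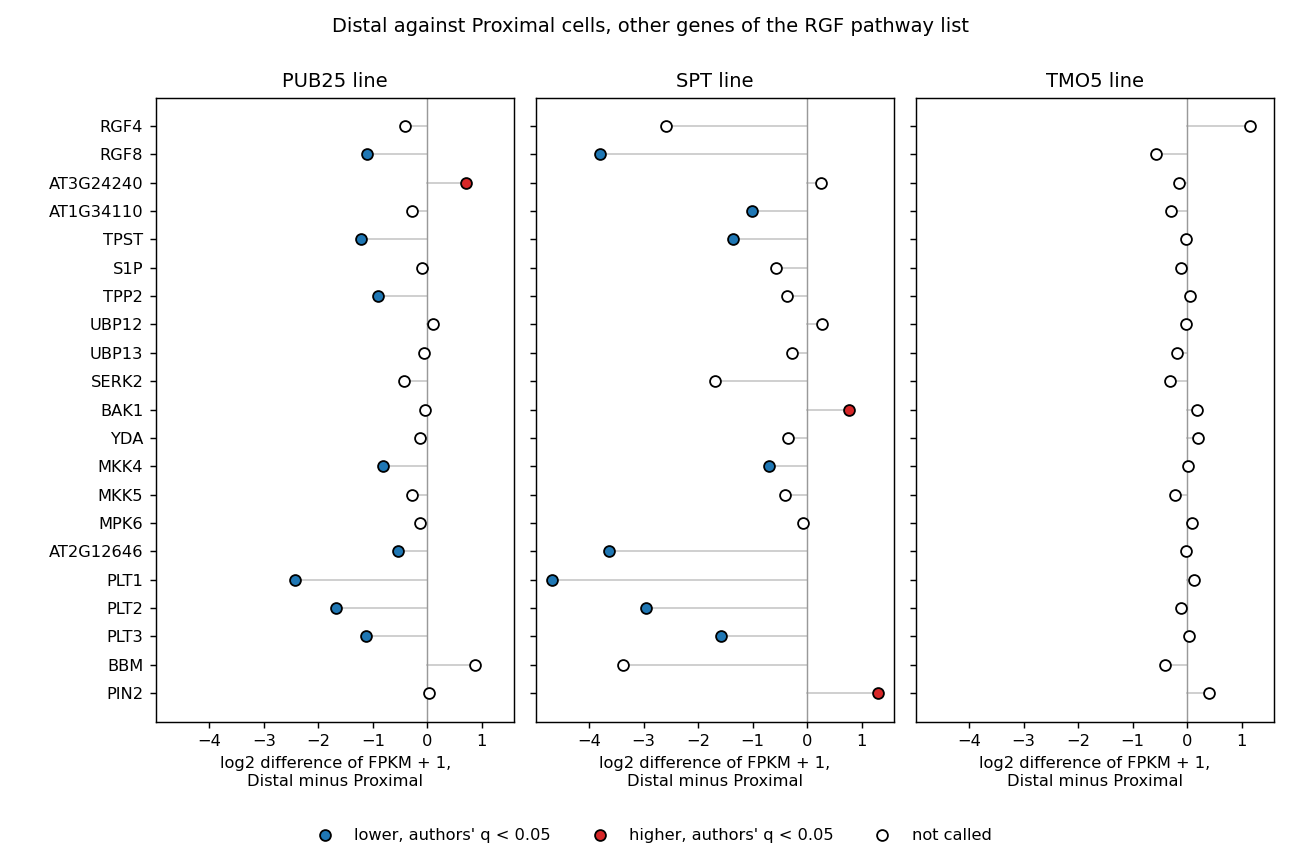
Log2 difference of FPKM + 1, Distal minus Proximal (x axis), for the 21 other genes of RGF signalling (y axis) in each line, with no replicate error available. Filled points passed the authors' q under 0.05 (blue lower, red higher) and open points did not. RGF8, TPST, MKK4, AT2G12646, PLT1, PLT2 and PLT3 are lower in both PUB25 and SPT, and all points are open in TMO5.

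Cell type marker sums are given beside these genes, and their zone patterns differed between lists and lines. The stem cell niche list (5 of 5 measured, including the PLT genes above) summed to 187, 111 and 67.8 FPKM in PUB25, to 238, 70.9 and 53.7 in SPT and to 218, 250 and 226 in TMO5. These sums are mostly those of PLT1, PLT2 and PLT3. WOX5, the marker of the list outside the PLETHORA family, stood at 0.289, 0.746 and 0.524 FPKM in PUB25 and rose in SPT from 0.772 in Proximal to 5.16 in Distal cells, with q = 0.0396 in the authors' deposited table. The root cap list (4 of 5 measured) summed to 466, 673 and 357 FPKM in PUB25, to 162, 227 and 623 in SPT and to 26.2, 24.2 and 15.3 in TMO5. Within it FEZ encodes a NAC factor of the stem cells that give rise to the cap. FEZ went from 90.3 in Proximal to 1.93 FPKM in Distal cells of PUB25 and from 45.1 to 1.43 in SPT. BRN2, a NAC gene of the maturing root cap, went from 45.3 to 229 and from 5.33 to 233 in the same lines. The other measured markers of the list differed between these lines. CEL5 stood at 201, 359 and 78.8 FPKM in PUB25 and at 43.4, 136 and 313 in SPT. From Proximal to Distal SMB went from 129 to 47.3 in PUB25 and from 67.8 to 75.5 in SPT.

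The xylem list (5 of 5) summed to 37.3, 40.5 and 155 FPKM in PUB25 and to 31.1, 679 and 381 in SPT, beside 1051, 662 and 908 in TMO5, which carries the xylem tissue label. In SPT the sum rests on the protease gene XCP2, at 2.78, 648 and 368 FPKM. In SPT AHP6 fell from Proximal to Distal from 11.5 to 0.998 FPKM, ACL5 from 7.27 to 2.46 and the gene TMO5 from 9.41 to 5.11. Their q values were 0.00641, 0.00372 and 0.0417 in the authors' deposited table. VND7, the remaining xylem marker, stood at 0.125, 12.0 and 5.13 FPKM in SPT. It was higher in Distal than Proximal cells but did not pass, with q = 0.366 in the authors' deposited table. In the xylem line the gene TMO5 stood at 481, 354 and 240 FPKM, AHP6 at 293, 133 and 100 and XCP2 at 167, 7.54 and 405. From Proximal to Distal TMO5 and AHP6 fell and XCP2 rose there, each with q = 0.00777 in the authors' deposited table. ACL5, at 106, 167 and 145 FPKM, and VND7, at 4.53, 1.12 and 17.3, did not pass over that interval. The endodermis list (5 of 5) summed to 3.12, 142 and 336 FPKM in SPT, and to 7.73, 24.8 and 16.3 in PUB25. Within the PUB25 sum CASP4 stood at 3.19, 8.80 and 1.15 FPKM, while the other CASP genes were higher in Distal than Proximal cells. The phloem list (3 of 3) stayed at or below 2.28 FPKM in PUB25 and reached 63.8 in SPT. The epidermis list (4 of 4) summed to between 72.6 and 78.5 FPKM in PUB25, and went from 65.1 to 39.96 in SPT. Within the PUB25 sum WER fell from 65.6 to 43.1 FPKM, while GL2 rose from 4.72 to 20.7, COBL9 from 1.65 to 7.51 and EXP7 from 0.691 to 2.75, with q values of 0.00142, 0.000407, 0.000407 and 0.0124 in the authors' deposited table. Within the SPT sum WER fell from Proximal to Distal from 57.1 to 28.6 FPKM and GL2 from 7.36 to 2.58. COBL9 rose there from 0.582 to 5.73 and EXP7 from 0 to 3.02. In the authors' deposited table the q values were 0.00122 for WER, 0.00171 for GL2 and 0.000359 for COBL9 and EXP7. Markers listed at 0 included APL in Proximal cells of PUB25 and in all zones of TMO5, EXP7 in Proximal cells of SPT, and CASP4 in Distal cells of TMO5. The part of these cell types in the zone differences of the RGF genes was not tested.

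RGF2 and RGF3, the peptide genes of the list that reached 20 FPKM in some group, had a Pearson r of 0.996 with each other over the 9 values of log2(FPKM + 1), after the mean of each line was taken off. Among 9180 genes with at least 5 FPKM in some zone of each line, those most like RGF2 were AT5G56910 (r of 0.991), AT3G47800 (0.989) and TBL1 (AT3G12060, 0.983). Those most like RGF3 were TBL1 (0.990), AT5G56910 (0.988) and AT5G05480 (0.984). Neither RGF2 nor RGF3 itself reached that floor of 5 FPKM in TMO5. Genes below the floor in every zone of TMO5, FEZ among them, could therefore not be named here. AT3G47800 stood at 74.5, 38.7 and 18.2 FPKM in PUB25 and at 50.8, 21.1 and 19.3 in SPT. TBL1, of the TRICHOME BIREFRINGENCE-LIKE family, stood at 18.4, 10.3 and 4.75 FPKM in PUB25 and at 10.025, 3.05 and 1.83 in SPT. The zone order of both genes in these lines was that of RGF2 and RGF3, over a smaller range. AT5G56910 stood at 5.30, 3.33 and 1.88 FPKM in PUB25, at 6.31, 2.82 and 2.54 in SPT and at 9.76, 8.92 and 8.99 in TMO5. TBL1 stood between 10.2 and 11.3 FPKM in TMO5 and AT3G47800 between 7.39 and 8.43. With line means taken off, the measure compares zones within a line and leaves out the level of a line, which for these genes was several FPKM or more in TMO5 and for RGF2 under 1. The 9 values come from 3 lines, with the zones of a line in 1 table, and the likeness is a description with no p.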

How the data were processed

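Sorted cells gave total RNA through a QIAGEN RNeasy micro kit, and NuGEN Ovation ultralow libraries were sequenced, per the labels' protocols. Bowtie, TopHat, Cufflinks and Cuffdiff with the TAIR10 build are named, per the submitters' processing notes, without versions, roles or order. The authors deposited a single FPKM value for each gene in each zone of a line. How the 3 or 2 libraries behind it were combined is not given in the sources used here. The authors' deposited tables also hold log2 folds between zones and q values (adjusted p-values). No library counts were used here, so depth and its precision are unknown and no test across libraries was run.

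The deposited log2 folds were recomputed from the FPKM of genes above 0 in both zones and differed by at most 4.59e-05. Where 1 zone is at 0 the authors list the log2 fold as 0. The 90 member values were equal in the zone and line tables. Calls are the authors' q under 0.05. Differences were computed as log2(FPKM + 1), and background shares cover rows averaging 1 FPKM or more across a line's zones (16605 in PUB25, 17365 in SPT and 15061 in TMO5). The call, median and likeness steps were tested on simulated data. Named genes are all 10 members, the fixed pathway list and, for each peptide gene reaching 20 FPKM, the 3 most similar genes by Pearson r. The last came only from genes with at least 5 FPKM in some zone of each line. The value of 1 marker gene is not reported here. The members and all lists were chosen with earlier results of these data known.

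Coordinates are those of the files. Of 26616 single loci, 11093 share a start or end exactly with RefSeq TAIR10.1, 130 and 131 do so when shifted by 1 base, and 99.996% overlap their gene. Sequences came from RefSeq TAIR10.1. Other call rules, pseudocounts, scalings and a filter on low values were tried. Python 3.11.15, pandas 2.3.3, numpy 2.4.6, scipy 1.17.1 and matplotlib 3.10.9 were used.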

Additional observations from a re-analysis of the deposited data

Results flagged for a closer look

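AT5G48940, titled LRR receptor-like kinase RCH1, moved in opposite directions from Proximal to Medial cells in the 2 root meristem lines. The log2 difference of FPKM + 1 was 0.49 in PUB25, where the level went from 25.7 to 36.5 FPKM, and -0.98 in SPT, where it went from 26.8 to 13.1 FPKM. Both passed in the authors' deposited table, with q values of 0.00259 and 0.000359. The difference between the lines was not tested.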

How the results depend on the processing

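No paired analysis was possible because each line and zone has 1 deposited value and no value per library, and leaving out each replicate was not run for the same reason. No called difference of the 10 genes changed sign under a pseudocount of 0.1, median centring or quantile normalization of the zones. Among uncalled ones, 3 from Medial to Distal cells of TMO5 turned negative. Quantile normalization gave -0.11 for RGF1, -0.38 for RGF3 and -0.21 for AT4G26540, and median centring -0.10 for RGF1 and -0.11 for RGF3. The largest shifts of 90 log2 differences were 2.54 (RGF7, a low gene), 0.13 and 0.39. Scaling moved the median of all expressed genes by over 0.1 in TMO5 alone, where median centring made it -0.10 for Distal minus Proximal and -0.16 for Distal minus Medial.

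Counts of the 10 genes that moved by over 1.5 times, or to or from 0, were these. With q under 0.01 the gene higher in Medial than Proximal cells of TMO5 was lost (0 in place of 1). With a 2-fold rule in place of q, 1 gene in place of 2 was higher in Distal than Medial cells of PUB25, and 2 in place of 1 in SPT. The same values came from median centring, quantile normalization and the filter on low values. A 2-fold rule with a pseudocount of 0.1, median centring or quantile normalization put 5 genes in place of 3 lower in Medial than Proximal cells of SPT. With a pseudocount of 0.1, 1 gene in place of 0 was lower and 3 in place of 1 were higher in Distal than Medial cells of SPT. In TMO5 that pseudocount gave 3 genes in place of 1 higher in Distal and in Medial than in Proximal cells, and 1 in place of 0 higher in Distal than Medial cells. Among the pathway genes, from Proximal to Distal and by alternatives chosen after seeing the data, the 2-fold rule gave 5 in place of 8 lower and 0 in place of 1 higher in PUB25, 1 in place of 2 higher in SPT, and 1 in place of 0 in TMO5. With q under 0.01, 1 in place of 2 was higher in SPT. Counts within 1.5 times also changed. In PUB25, q under 0.01 removed RGF1 from both falls and AT5G48940 from the rise from Proximal to Distal, leaving 2 in place of 3 each, and the 2-fold rule also left 2 of 3 lower and 2 of 3 higher there. From Proximal to Medial of PUB25 the 2-fold rule left 2 of 3 higher, and a pseudocount of 0.1 gave 4 in place of 3 lower. In SPT the 2-fold rule gave 3 in place of 2 lower and 3 in place of 2 higher (2 with the filter on low values) from Proximal to Distal, and a pseudocount of 0.1 gave 3 in place of 2 higher from Proximal to Medial. The cause of these shifts was not tested. With Spearman's rho, 1 of the 3 genes most like RGF2 stayed among the first 3, and 0 of those most like RGF3.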
